A study of Mus musculus with 44 samples.

Results

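Ppp1r1a and Ppp1r1b are 2 of the 8203 genes measured by TRAP-seq in Crh-TRAP mice, and they encode the related protein phosphatase 1 inhibitors inhibitor-1 and DARPP-32. They were chosen by name for their measured levels across the groups and batches of these same mice, and above all for their EXT minus TA differences, so those differences are described below without a test. In Crh-TRAP mice, Cre recombinase driven by the Crh promoter switches on eGFP fused to the ribosomal protein L10a, and an antibody against GFP pulls down ribosomes with the RNA on them. All 44 mice were first-generation progeny carrying both transgenes and were 10 to 16 weeks old, and each sample came from the 1 mm amygdala punches of 1 mouse, labelled Central Amygdala. The 16 TA mice (10 males and 6 females) heard the tones with the shock generator off. The 12 FC mice (6 males and 6 females) received 5 tone-shock pairings, and the 16 EXT mice (10 males and 6 females) received the same pairings and, on the next day and in another context, 30 tones without shock. All were killed 2 h after their last session, so the EXT mice also differed from the TA and FC mice in the day and the number of sessions, which cannot be told apart from extinction.

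Protein phosphatase 1 (PP1) removes phosphate from serine and threonine residues of synaptic and nuclear proteins, and its catalytic subunits are steered and restrained by a large family of partner proteins. When protein kinase A (PKA) is activated by cAMP, it phosphorylates inhibitor-1 and DARPP-32 on a threonine near the amino end, and the phosphorylated proteins block PP1. Calcineurin removes that phosphate again. DARPP-32 is best known from the medium spiny neurons of the striatum, where it relays dopamine signals, while inhibitor-1 is expressed more widely in the brain.

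In the GENCODE annotation on GRCm38, Ppp1r1a (ENSMUSG00000022490.7) lies on the minus strand at chr15:103530279-103538003, and Ppp1r1b (ENSMUSG00000061718.12) lies on the plus strand at chr11:98348404-98357796. Over the whole proteins, 52 of 170 aligned residues were identical (30.6%), and over the first 50 codons 27 of 49 were (55.1%). The longest run of codons for the same residues in both genes was 9 codons long, of which 20 of 27 bases were identical. It opens the second coding exon of each gene and holds the codon of the threonine that PKA phosphorylates. The coding sequence around it is shown because it is where the 2 inhibitors share the switch by which cAMP controls them, with the shared run in capitals and 6 codons on either side.
Ppp1r1a: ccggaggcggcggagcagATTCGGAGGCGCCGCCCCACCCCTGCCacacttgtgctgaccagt
Ppp1r1b: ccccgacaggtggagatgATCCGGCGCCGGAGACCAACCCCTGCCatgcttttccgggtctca
The Ppp1r1a stretch was joined from chr15:103537795-103537812 and chr15:103534366-103534410, read on the minus strand, and the Ppp1r1b stretch from chr11:98349157-98349174 and chr11:98350569-98350613. Ppp1r1b overlaps the antisense gene 1700003D09Rik, which is no row of the matrix. The counting is not stated to use strand, so reads of Ppp1r1b and of this partner cannot be told apart.

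Both genes were far above the detection floor in every mouse. Ppp1r1a had 1898 to 6201 reads per library and Ppp1r1b 3653 to 29443, in libraries of 12802113 to 20440351 reads. In the mean log2 cpm over all mice, 14.6% of the genes lay above Ppp1r1a and 1.41% above Ppp1r1b. Batches 3 and 4 held only EXT mice (5 and 1), while batch 1 held 4 TA, 5 FC and 2 EXT mice, batch 2 held 5, 2 and 3, and batch 5 held 7, 5 and 5. Batch accounted for 78.7% of the first principal component of all genes. Of the 12 central amygdala markers looked for, 10 were measured, Crh among them, and their summed level was 523 to 1088 cpm in the 6 mice of batches 3 and 4, below all 16 TA mice (1192 to 3326 cpm). In the same 6 mice the median summed level was 7222 cpm for 8 oligodendrocyte markers, 2246 cpm for 9 astrocyte markers and 356 cpm for 4 glutamatergic markers, against 3055, 1326 and 164 cpm in the other 10 EXT mice. For Gad1 and Gad2 it was 747 against 998 cpm. The part of these levels in the differences below was not tested. Gad1 and Gad2, the enzymes of GABA synthesis, were measured, none of the 8 microglial or 4 endothelial markers was, and 22 of 23 markers of striatal medium spiny neurons were.

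The libraries of 6 mice stood apart in the summed level of Malat1 and 6 mitochondrial transcripts. They were the EXT mice 21 (batch 2), 22, 25, 44 and 53 (batch 3) and 55 (batch 4), with 18346 to 32040 cpm, whereas the other 38 mice had 86.6 to 6551 cpm. Whether this level reflects RNA quality or RNA not bound to the eGFP-tagged ribosomes was not tested. The labels of mice 22, 25, 44 and 53 break the order in which the animal numbers otherwise follow sex and group. The group differences and the correlation of the 2 genes are therefore also given without batches 3 and 4 and mouse 21.

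Ppp1r1a was higher in the EXT mice than in the TA and FC mice. In the TA mice its level was 6.78 log2 cpm at the lowest, 7.32 at the median and 7.64 at the highest, and in the FC mice 6.80, 7.39 and 7.61. In the EXT mice these values were 7.28, 8.04 and 8.66. The TA and FC mice shared 1 range, while 10 of the 16 EXT mice lay above the highest TA mouse and 13 above the TA median. Across all genes, 1.07% had at least 10 EXT mice above the highest TA mouse. The mean level was 7.25 ± 0.24 log2 cpm in the TA mice (SD, n = 16), 7.30 ± 0.26 in the FC mice (n = 12) and 7.94 ± 0.50 in the EXT mice (n = 16), so the spread was also widest after extinction.

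Ppp1r1b was the more abundant and the more variable gene, and its groups overlapped. Its lowest, median and highest levels were 8.81, 9.89 and 10.43 log2 cpm in the TA mice and 8.15, 9.47 and 10.62 in the FC mice. In the EXT mice they were 7.99, 9.64 and 11.09. The EXT mice reached past the TA mice at both ends, with 3 of 16 above the highest TA mouse and 3 below the lowest. The means were 9.80 ± 0.41 log2 cpm in the TA mice (SD, n = 16), 9.54 ± 0.77 in the FC mice (n = 12) and 9.62 ± 0.86 in the EXT mice (n = 16), and the distances between them were smaller than the SDs.

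**Figure D1:**
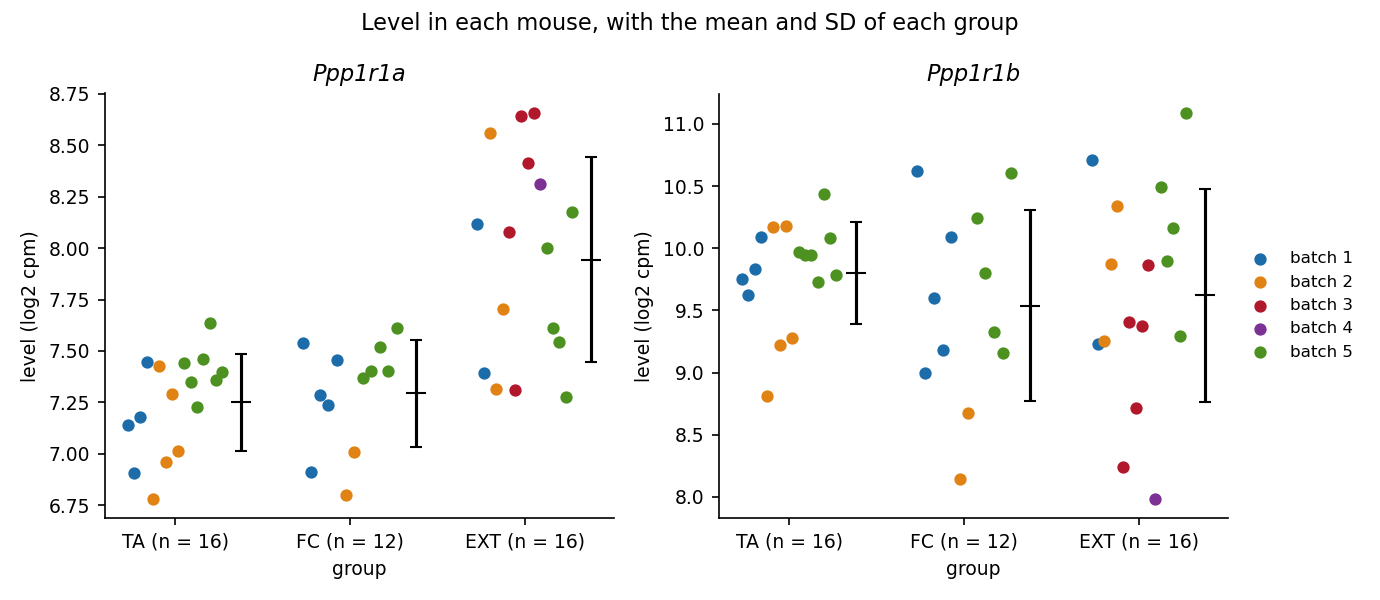
Level of Ppp1r1a (left) and Ppp1r1b (right) in log2 cpm on the vertical axis for each mouse of the TA, FC and EXT groups, coloured by batch, with the mean and SD of each group as a black bar. For Ppp1r1a, 10 of the 16 EXT mice lie above the highest TA mouse, and for Ppp1r1b the EXT mice extend both above and below the TA mice.

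In limma fits with batch number and sex as covariates, Ppp1r1a was 0.69 ± 0.14 higher (log2, standard error) in EXT than in TA mice, 0.65 ± 0.16 higher than in FC mice, and differed by 0.06 ± 0.09 between FC and TA mice. These comparisons share their mice, EXT and FC being set against the same TA mice. At an adjusted p under 0.05, 1755 of the 8203 genes (21.4%) differed between EXT and TA mice, Ppp1r1a among them and Ppp1r1b not. That split is how the pair was chosen, and nothing is read from it. The difference in Ppp1r1b was -0.20 ± 0.23 between EXT and TA mice, -0.26 ± 0.21 between FC and TA mice and 0.09 ± 0.29 between EXT and FC mice. The EXT minus FC values also moved with the treatment of batch. They were, with batch as categories, 0.48 ± 0.17 for Ppp1r1a and 0.57 ± 0.27 for Ppp1r1b, and without batches 3 and 4 and mouse 21 they were 0.38 ± 0.13 and 0.59 ± 0.29.

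The excess of Ppp1r1a in the EXT mice was present in each batch that held TA mice. The EXT minus TA difference of the batch means was 0.59 log2 in batch 1, 0.76 in batch 2 and 0.31 in batch 5. Batch 2 held 3 EXT mice, and without mouse 21 its difference was 0.41. Within these 3 batches, 5 of 10 EXT mice lay above the highest TA mouse, against 2.18% of all genes with at least 5. At an adjusted p under 0.05 without batches 3 and 4, 3 genes passed (0.0366%), neither member among them. With batch as categories, which compares mice within batches, the fitted difference was 0.51 ± 0.15, and without batches 3 and 4 it was 0.50 ± 0.13. Leaving out mouse 21 as well gave 0.41 ± 0.11. With the summed mitochondrial and Malat1 level as a covariate the difference was 0.45 ± 0.13, and with log2 library size it was 0.45 ± 0.18. Ppp1r1a kept its direction in all 13 alternative fits, between 0.40 and 0.69. The pair was chosen on this difference, so no support is drawn from that. All 22 genes of the pathway lists below that were called in the main fit also kept their direction with batch as categories. The number of genes with an adjusted p under 0.05 fell from 1755 to 2 (0.0244%) with batch as categories. It fell to 0 without batches 3 and 4 and mouse 21, where 1244 (15.2%) had an unadjusted p under 0.05. Neither member was among those 2 genes.

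Ppp1r1b changed direction with the treatment of batch. Within batches its EXT mice were higher than its TA mice, by 0.15 log2 in batch 1, 0.29 in batch 2 (0.58 without mouse 21) and 0.20 in batch 5. With batch as categories the fitted difference was 0.22 ± 0.20, and without batches 3 and 4 and mouse 21 it was 0.29 ± 0.20, against -0.20 ± 0.23 with batch as a number. The mean level was 9.12 ± 0.64 log2 cpm in batch 3 (SD, n = 5), 7.99 in the mouse of batch 4 and 10.04 ± 0.64 in the EXT mice of the other batches (n = 10). Batches 3 and 4 held no TA or FC mouse, so batch and group cannot be told apart there. Fewer cells that express a gene and less of its RNA per cell cannot be told apart in these bulk samples either.

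**Figure D2:**
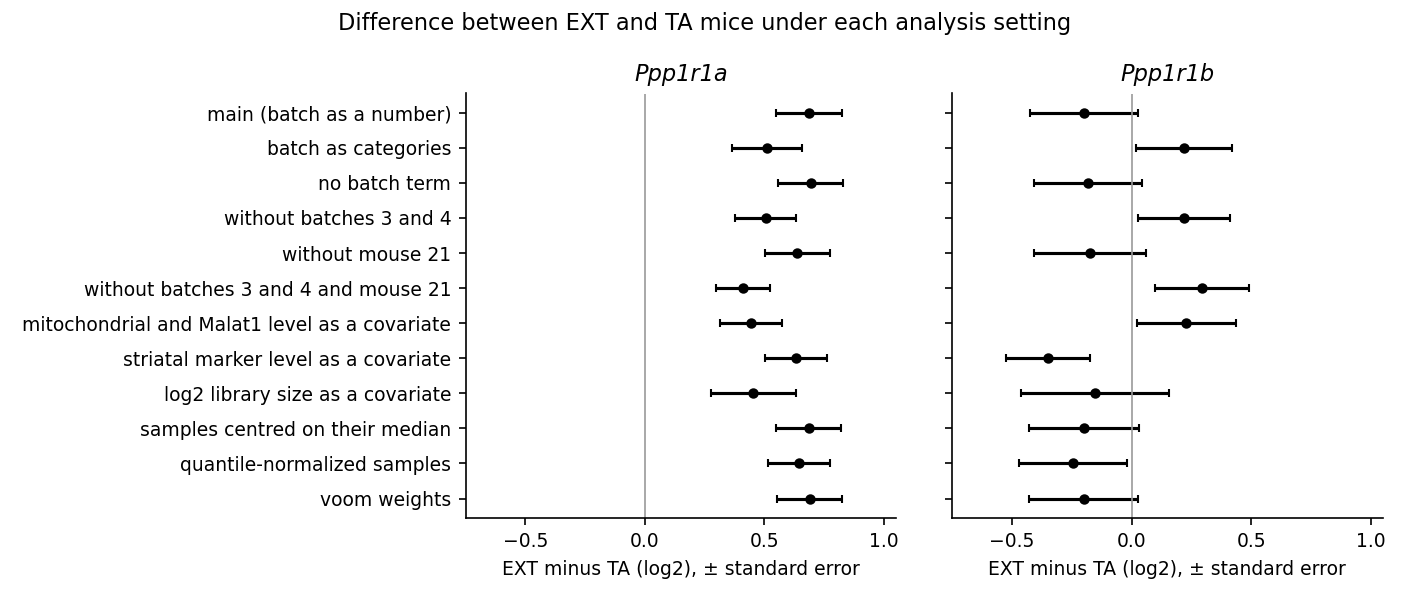
EXT minus TA difference (log2, horizontal axis) of Ppp1r1a (left) and Ppp1r1b (right) under each analysis setting (rows), with bars of 1 standard error. Ppp1r1a lies right of 0 in every row, and Ppp1r1b moves from -0.20 to 0.22 when batch is coded as categories.

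Between FC and TA mice, the lower mean of Ppp1r1b came largely from batch 2. Its 2 FC mice had 8.15 and 8.68 log2 cpm, against a mean of 9.53 in the 5 TA mice of that batch, a difference of -1.12. In batches 1 and 5 the difference was -0.13 and -0.16. Ppp1r1a showed -0.19 in batch 2, 0.12 in batch 1 and 0.05 in batch 5. With batch as categories the FC minus TA difference was -0.35 ± 0.19 for Ppp1r1b and 0.02 ± 0.08 for Ppp1r1a. No gene of 8203 passed an adjusted p of 0.05 between FC and TA mice in limma with either coding of batch, and 853 (10.4%) had an unadjusted p under 0.05. Between EXT and FC mice 0 genes passed and 1587 (19.3%) had an unadjusted p under 0.05.

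The balance of the inhibitors was compared per kb of exons, counted over all annotated transcripts of each gene. Ppp1r1b has 2928 exon bases and Ppp1r1a 1306, and in cpm per kb Ppp1r1b exceeded Ppp1r1a in all 16 TA and all 12 FC mice but in 11 of the 16 EXT mice. The ratio of Ppp1r1b to Ppp1r1a per kb was 1.82 at the lowest, 2.76 at the median and 3.31 at the highest in the TA mice, and 1.14, 2.05 and 3.77 in the FC mice. In the EXT mice it was 0.356, 1.86 and 3.36. The 5 EXT mice in which Ppp1r1a was the higher of the 2 were mice 21, 22, 25, 44 and 55, all of them among the 6 libraries with the high mitochondrial and Malat1 level. In the 10 EXT mice outside these libraries, Ppp1r1b was the higher of the 2. These counts depend on the exon lengths, and in cpm without them Ppp1r1a was the higher only in mouse 55. On the log2 cpm scale, the ratio of Ppp1r1a to Ppp1r1b was -0.69 in mouse 21, -0.16 in mouse 22, -0.07 in mouse 25, -0.96 in mouse 44, -1.21 in mouse 53 and 0.33 in mouse 55. All 6 were above the highest TA mouse (-2.03). Of all 16 EXT mice 8 lay above that value, and of the 12 FC mice 5 did. Among these were FC mice 42 and 43, at -1.35 and -1.67, with 258 and 281 cpm of Malat1 and the mitochondrial transcripts. Mouse 23, the remaining mouse of batch 3, had 4929 cpm of these transcripts and a ratio of -2.10.

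Among PP1 genes, the level per kb of Ppp1ca, a catalytic subunit, was 241 ± 26.3 cpm in the TA mice (SD, n = 16), between Ppp1r1b at 316 ± 80.7 and Ppp1r1a at 118 ± 18.6. The other catalytic subunits were lower still, Ppp1cc at 36.8 ± 5.79 cpm per kb and Ppp1cb at 31.0 ± 4.54. Their place depends on the exon lengths, 10913 bases for Ppp1cb against 2520 for Ppp1ca. Without division by length, Ppp1cb had a mean of 8.39 log2 cpm in the TA mice, above Ppp1r1a (7.25) and Ppp1cc (6.96). The order Ppp1r1b, Ppp1ca, Ppp1r1a held for the means of the FC mice too (287 ± 147, 269 ± 51.2 and 122 ± 20.6). In the EXT mice, Ppp1r1b (314 ± 179) and Ppp1ca (314 ± 73.6) had nearly the same mean and Ppp1r1a had 199 ± 67.7, with overlapping spreads.

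Across mice, the 2 inhibitors rose and fell together in the TA and FC mice. Pearson's r between their log2 levels was 0.859 in the 16 TA mice (permutation p = 1e-05, the smallest that 100000 permutations can give, adjusted p = 5e-05 over 5 relations) and Spearman's rho was 0.715 (permutation p = 0.00245, adjusted 0.0071). In the 12 FC mice r was 0.845 (permutation p = 0.00036, adjusted 0.0009) and rho 0.797 (permutation p = 0.00284, adjusted 0.0071). Without the 2 mice farthest from the median of Ppp1r1a, r was 0.821 in the TA and 0.764 in the FC mice. The pair was chosen from the levels of these same mice, and its correlation was planned as a description. No support is drawn from the p-values. The permutations above pooled the 3 batches, which differ in both genes. With batch means subtracted and mice permuted within batches, r was 0.850 in the TA mice (permutation p = 0.00042, adjusted 0.00168 over 4 relations) and 0.733 in the FC mice (permutation p = 0.0146, adjusted 0.0194). Spearman's rho was 0.735 (permutation p = 0.00918, adjusted 0.0184) and 0.622 (permutation p = 0.0459, adjusted 0.0613). Without the 2 farthest mice, r within batches was 0.808 and 0.557.

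Over all 16 EXT mice this relation was not seen. There r was -0.170 over 16 mice (permutation p = 0.529, adjusted 0.529) and rho -0.156 (permutation p = 0.565, adjusted 0.565), and r was -0.273 without the 2 farthest mice. In the 10 EXT mice of batches 1, 2 and 5, r was 0.348 (permutation p = 0.321, adjusted 0.402) and rho 0.491 (permutation p = 0.154, adjusted 0.193), and r was 0.876 without the 2 farthest mice. With batch means subtracted, r in these 10 mice was 0.404 (permutation p = 0.29, adjusted 0.29) and rho 0.442 (permutation p = 0.242, adjusted 0.242). In the 9 mice left without mouse 21, a choice made after seeing the data, r was 0.968 (permutation p = 0.00655, adjusted 0.0131). Spearman's rho was 0.95 there (permutation p = 0.00827, adjusted 0.0184). The pair and the left-out mouse were both chosen from these data, so no support is drawn from these p-values. The difference between the groups' correlations was not tested. With the mean of each batch and group subtracted, in the 39 mice of the 8 batch-and-group combinations with at least 3 mice, r was 0.36 (permutation p = 0.068, adjusted 0.113) and rho 0.443 (permutation p = 0.0178, adjusted 0.0296). Without batch 3 and mouse 21, r was 0.811 over 31 mice, since the other 2 EXT mice of batch 2 then fell under the minimum of 3 and left too. With a minimum of 2 mice, and without batches 3 and 4 and mouse 21, r was 0.841 over 37 mice and 0.551 when mouse 21 was kept (38 mice).

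**Figure D3:**
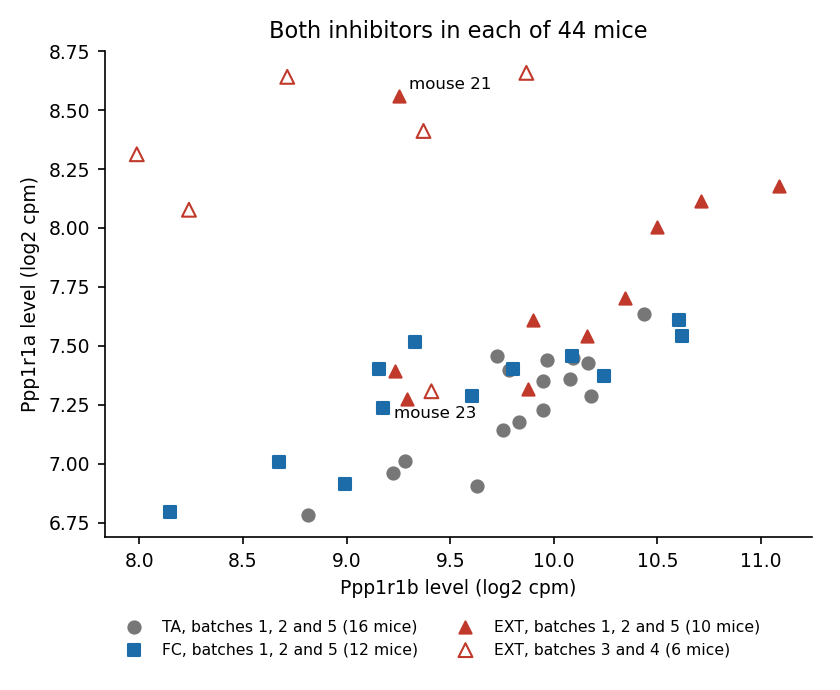
Ppp1r1a (vertical axis) against Ppp1r1b (horizontal axis), both in log2 cpm, in each of the 44 mice, with symbols for the group and open triangles for the EXT mice of batches 3 and 4. The TA and FC mice lie along 1 diagonal. Most EXT mice of batches 1, 2 and 5 lie on or above it, with mice 24, 26 and 60 above its upper end. Mouse 21 and all mice of batches 3 and 4 but mouse 23 lie farthest above it.

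The levels of Malat1 and the mitochondrial transcripts moved with both genes in opposite senses. Over the 39 mice, with batch-and-group means subtracted, the log2 summed level of Malat1 and the mitochondrial transcripts had r = 0.393 and rho = 0.270 with Ppp1r1a and r = -0.444 and rho = -0.493 with Ppp1r1b. With the log2 ratio of Ppp1r1a to Ppp1r1b it had r = 0.707 and rho = 0.660, and r = 0.758 without batch 3 (34 mice). All 7 of these transcripts were called higher in EXT than in TA mice with batch as a number, beside 10.4% of all genes. With batch as categories 0 were, but only 2 of all 8203 genes (0.0244%) passed there, so that count says little about these transcripts. Their part in the difference of Ppp1r1a was not tested beyond the covariate given above, with which Ppp1r1a stood at 0.45 ± 0.13 and Ppp1r1b at 0.23 ± 0.21.

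Ppp1r1b followed the markers of striatal medium spiny neurons, a cell type that lies next to the amygdala and expresses it strongly. Their summed level was 3607 to 8730 cpm in the TA mice, 3484 to 11763 cpm in the FC mice and 3198 to 17496 cpm in the EXT mice. Within batches and groups, its log2 had r = 0.753 and rho = 0.758 with Ppp1r1b and r = 0.615 and rho = 0.599 with Ppp1r1a (39 mice). Of the 22 markers, 21 had a positive r with each gene, the exception being Foxp2 (-0.38 with Ppp1r1b and -0.16 with Ppp1r1a).

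Among single markers, the highest r with Ppp1r1b was that of Pde1b (0.827), a calmodulin-dependent phosphodiesterase, followed by the orphan receptor gene Gpr6 (0.790), the adenylyl cyclase gene Adcy5 (0.786), Rasd2 (0.776) and the dopamine receptor gene Drd1 (0.754). The highest r with Ppp1r1a were those of Syndig1l (0.783), the G protein subunit gene Gng7 (0.732) and Meis2 (0.698). The opioid precursor gene Penk had r = 0.715 with Ppp1r1b and r = 0.020 with Ppp1r1a.

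With the striatal level as a covariate, the EXT minus TA difference of Ppp1r1a was 0.63 ± 0.13 and that of Ppp1r1b was -0.35 ± 0.18. The 4 measured glutamatergic markers ran against Ppp1r1b (r = -0.713, rho = -0.672) and the 9 astrocyte markers did so less (r = -0.447, rho = -0.478), while with Ppp1r1a these lists had r = -0.190 and r = -0.136. The central amygdala list had r = 0.282 with Ppp1r1b and r = -0.349 with Ppp1r1a. These correlations share the libraries and their scaling to a common total, and they describe levels within punches, whose cell makeup was not tested.

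**Figure D4:**
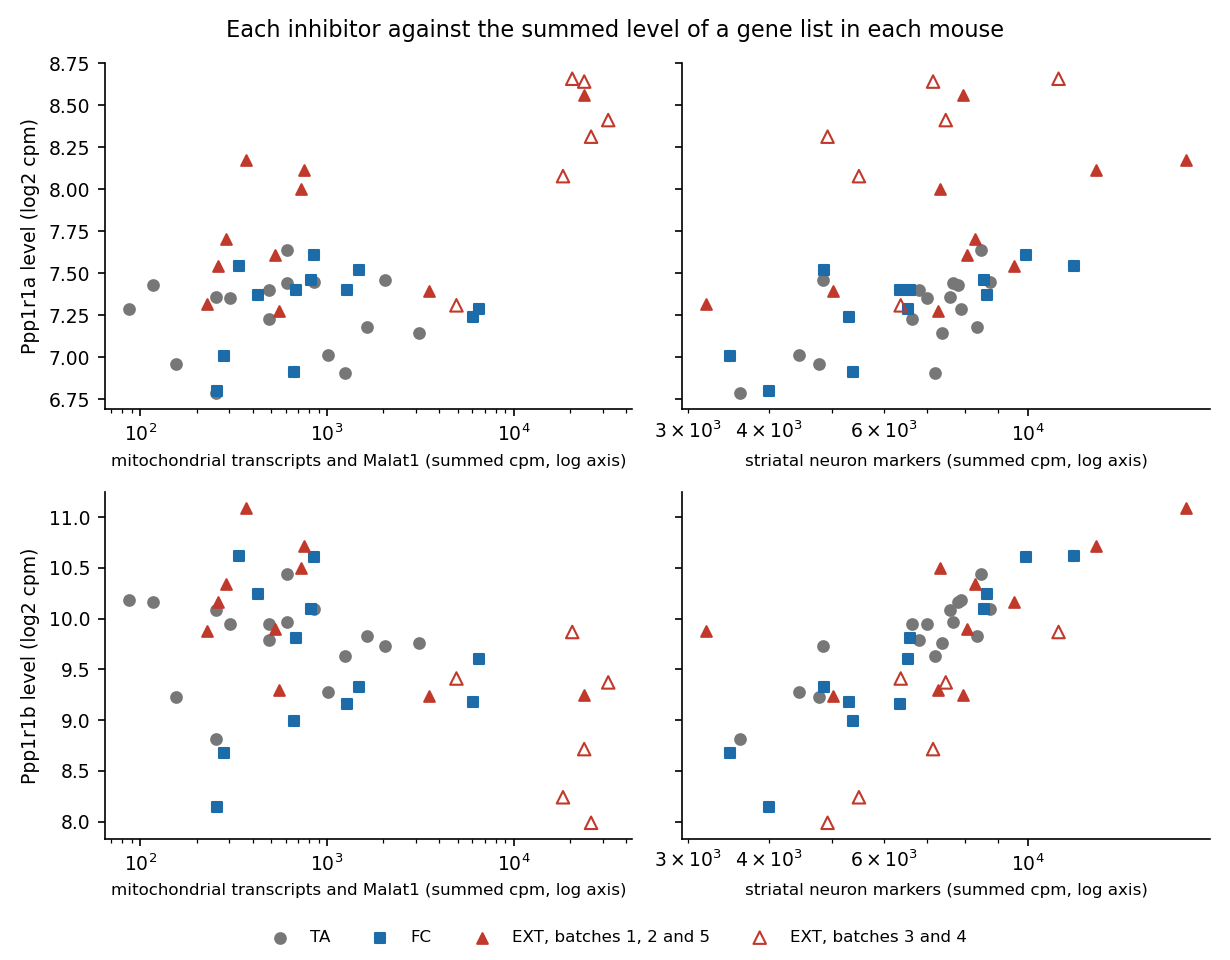
Level of Ppp1r1a (upper row) and Ppp1r1b (lower row) in log2 cpm against the summed cpm of Malat1 and 6 mitochondrial transcripts (left) and of 22 striatal neuron markers (right) in each mouse, on log horizontal axes. The 6 EXT mice from 18346 cpm upward on the left have high Ppp1r1a, and mice with more of the striatal markers mostly have more Ppp1r1b.

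**Figure D5:**
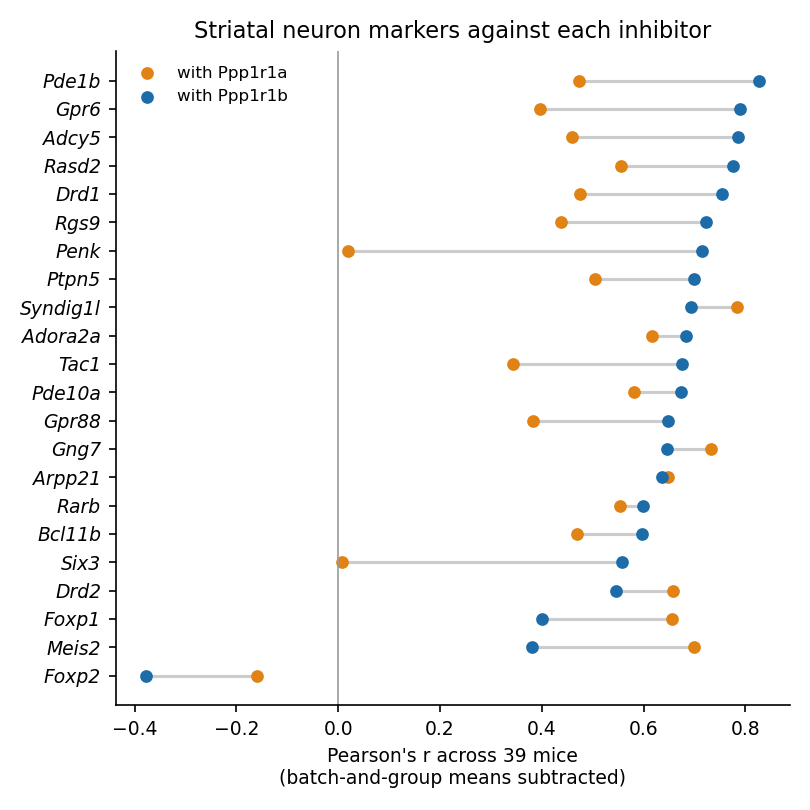
Pearson's r of each of 22 striatal neuron markers (rows) with Ppp1r1a (orange) and Ppp1r1b (blue) across 39 mice after subtraction of the batch-and-group means. All markers but Foxp2 lie right of 0 for both genes, and Penk and Six3 lie near 0 for Ppp1r1a.

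Of all 8203 genes, those whose levels were most like Ppp1r1b across the 39 mice were Acy1, an aminoacylase gene (r = 0.828), Pde1b (0.827), Gpr6 (0.790), Adcy5 (0.786) and Slmap (0.782). Those that ran most against it were Nrn1 (-0.779), Tcf4 (-0.776) and Nr2f1 (-0.745), and Nrn1 was also on the list of glutamatergic markers. For Ppp1r1a the most alike were Car11, a carbonic anhydrase-related gene (0.853), Dnlz (0.853), Nudt18 (0.843), the small GTPase gene Hras (0.838) and Snhg6 (0.837), and the least alike were Rragb (-0.851), Ppid (-0.820) and Rab14 (-0.816). Neither gene was near the top of the other's order, Ppp1r1b ranking 1606 for Ppp1r1a and Ppp1r1a 756 for Ppp1r1b.

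The other genes of the PP1 and cAMP pathway were described from 9 lists of 125 genes, of which 92 were measured. Between EXT and TA mice, 22 of the 92 (23.9%) passed an adjusted p of 0.05 in limma, 13 higher and 9 lower, beside 21.4% of all genes (10.4% higher and 11% lower). Their median difference was 0.06 log2, and that of all genes 0.005. With batch as categories and without batches 3 and 4 none of the 92 passed, although with categories 9 were higher and 8 lower at an unadjusted p under 0.05. The calls thus changed with the coding of batch and with leaving out batches 3 and 4. Those fits had more terms or fewer mice, and the cause of the lost calls was not tested. Of the 22 genes, all 22 kept their direction with batch as categories and 21 without batches 3 and 4 and mouse 21, where 0 of the 92 passed and the 22 had a median of 0.351 of their difference over all mice. The 15 of them named below are given with their values for batch as categories.

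Of the 3 catalytic subunits, Ppp1ca rose in EXT mice, from 9.24 ± 0.16 log2 cpm in the TA mice to 9.59 ± 0.34 (SD, n = 16 each), with a fitted difference of 0.34 ± 0.10 (limma adjusted p = 0.0179) and of 0.25 ± 0.11 with batch as categories (adjusted p = 0.181). Ppp1cc (-0.14 ± 0.09) and Ppp1cb (-0.02 ± 0.08) did not pass. Of 6 other inhibitors measured, 1 was called, Ppp1r14b, at 0.86 ± 0.22 (adjusted p = 0.0148) and 0.46 ± 0.21 with categories (adjusted p = 0.214). Ppp1r2, the gene of inhibitor-2, stood at 0.16 ± 0.10 and Ppp1r8, whose product inhibits nuclear PP1, at -0.21 ± 0.12.

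Among 18 measured targeting subunits, which bring PP1 to its substrates, 5 were called higher and 1 lower. They included Ppp1r9b, encoding the spine protein spinophilin, at 0.75 ± 0.20 (adjusted p = 0.0164), and 0.46 ± 0.19 with categories (adjusted p = 0.173). Ppp1r16b stood at 0.67 ± 0.22 and Ppp1r16a at 0.53 ± 0.17, against 0.30 ± 0.21 and 0.15 ± 0.14 with categories. The gene called lower was Ppp1r12a, a myosin phosphatase targeting subunit, at -0.36 ± 0.12 and -0.27 ± 0.12 with categories.

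Upstream of the inhibitors, 2 of 15 measured genes of cAMP synthesis and PKA were called higher and 4 lower. The PKA regulatory subunit genes Prkar1b and Prkar1a were lower, by -0.49 ± 0.11 and -0.40 ± 0.11 (adjusted p = 0.013 and 0.0178), and by -0.38 ± 0.12 and -0.20 ± 0.11 with categories. Pkig, the gene of a PKA inhibitor, was higher by 0.75 ± 0.18, and Adcy1, an adenylyl cyclase gene, by 0.82 ± 0.22, against 0.37 ± 0.14 and 0.41 ± 0.19 with categories. None of the 9 phosphodiesterases and none of the 11 genes of calcineurin, calmodulin and their regulators was called, the smallest adjusted p being 0.0973 for Pde2a (0.23 ± 0.10) and 0.0603 for the calcineurin subunit gene Ppp3cb (0.27 ± 0.10).

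Of the 21 measured kinases and phosphatases that act on the other sites of DARPP-32, 3 were called higher and 4 lower. The casein kinase gene Csnk1d was lower by -0.37 ± 0.09 (adjusted p = 0.013) and was among the steadiest values, at -0.35 ± 0.09 with batch as categories (adjusted p = 0.143). Csnk1a1 was lower by -0.40 ± 0.12 and by -0.14 ± 0.10 with categories. The PP2A regulatory subunit genes Ppp2r2c and Ppp2r2d were higher, by 0.47 ± 0.13 and 0.30 ± 0.08, and by 0.24 ± 0.13 and 0.19 ± 0.08 with categories. Of the 4 other cAMP-regulated phosphoproteins none was called, Arpp21 being nearest at 0.52 ± 0.21 (adjusted p = 0.0662). Of 5 PP1 substrates, Gria1, an AMPA receptor subunit gene, was called higher at 0.43 ± 0.15 (adjusted p = 0.0438), against 0.18 ± 0.14 with categories (adjusted p = 0.487). Between FC and TA mice, and between EXT and FC mice, 0 of the 92 genes passed an adjusted p of 0.05.

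Neither inhibitor differed between the sexes beyond the spread between mice. With batch as categories and group in the limma fit over all 44 mice, the female minus male difference was -0.01 for Ppp1r1a (95% confidence interval -0.25 to 0.22, adjusted p = 0.9998) and 0.02 for Ppp1r1b (-0.37 to 0.41, adjusted p = 0.9998). No gene passed an adjusted p of 0.05, and 339 (4.13%) had an unadjusted p under 0.05. The labelled sex was not verified from expression. Of 18 females, 3 lay above all males for Eif2s3x, 4 for Ddx3x and 4 for Kdm5c, X-linked genes that escape inactivation. Such a count cannot tell overlapping levels from a female labelled as male, so the sex results rest on the labels.

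The EXT minus TA difference of Ppp1r1a was 0.87 ± 0.23 in females and 0.58 ± 0.16 in males, and that of Ppp1r1b 0.17 ± 0.28 and -0.42 ± 0.31. The values of Ppp1r1a with batch as categories were 0.89 ± 0.27 in females and 0.27 ± 0.13 in males, and those of Ppp1r1b 0.36 ± 0.24 and 0.22 ± 0.24, the latter with its sign turned. The difference between the sexes, tested as an interaction in limma, was 0.30 for Ppp1r1a (95% confidence interval -0.28 to 0.88, adjusted p = 0.998) and 0.59 for Ppp1r1b (-0.35 to 1.54, adjusted p = 0.998). Without batches 3 and 4, that of Ppp1r1a was 0.65 (0.17 to 1.14), with an unadjusted p of 0.00997 and an adjusted p of 0.453. Leaving out mouse 21 as well gave 0.47 (0.01 to 0.93), with an unadjusted p of 0.0455 and an adjusted p of 0.81. In FC minus TA the interaction was 0.19 for Ppp1r1a (-0.17 to 0.55, adjusted p = 0.913) and 0.65 for Ppp1r1b (-0.20 to 1.50, adjusted p = 0.826). No gene passed an adjusted p of 0.05 in either interaction. For EXT minus TA 339 genes (4.13%) had an unadjusted p under 0.05, and for FC minus TA 540 (6.58%) did.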

How the data were processed

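TRAP-seq RNA of 44 mice was measured, 1 library per mouse. Per the labels, the authors trimmed reads with Trimmomatic 0.36, aligned them with STAR to GRCm38 and used edgeR and limma; counting is not stated to use strand. The deposited values are log2 cpm, as limma voom writes them, with 0.5 added to each read count, and the authors kept genes above a minimum cpm. Columns headed by bare numbers, which the record of units lists as other, hold the same deposited log2 values. Dividing out library size gave a whole number of reads, within 0.01, for 360932 of 360932 values. Group, sex and batch came from the labels. The authors state that mice shared cages with littermates of the same sex, and they describe cages being assigned to groups for fear conditioning. The labels used here give no cage or litter, so neither entered the fits. Errors are the spread between mice, counting error included, and treat the mice as independent, which was not tested.

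The members and gene lists were chosen with earlier results of these data known. Contrasts were fitted over all 8203 genes with limma 3.58.1 in R 4.3.3 (two-sided, Benjamini-Hochberg adjustment, threshold 0.05), with batch number as a covariate and sex as a factor, as the main fit of the groups. The sex fit used batch as categories. Permutation tests used 100000 resamples. Named pathway genes are the 3 catalytic subunits and up to 4 genes with the smallest p in each list, and named alike genes are the 5 highest and 3 lowest in Pearson's r. Alternatives were other codings of batch, left-out mice and batches, covariates, scalings, an offset of 5 reads, a mean log2 value of at least 5, and voom weights. The fits were run on simulated data with independent genes and no batch effect, which cannot check the coding of batch. Genes were placed with GENCODE release 21, whose transcripts also gave the coding stretches. Other software was scipy 1.17.1, pandas 2.3.3 and Python 3.11.15.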

Additional observations from a re-analysis of the deposited data

Results flagged for a closer look

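In the TA females, mouse 1 stood apart from the other 5 with the lowest Ppp1r1b level, 8.81 log2 cpm, and the highest log2 ratio of Ppp1r1a to Ppp1r1b, -2.03. Its Ppp1r1a level, 6.78 log2 cpm, was the lowest of the TA mice and was not set apart by the same measure. It was also the only TA female of batch 2 and had the lowest summed level of striatal neuron markers among the TA mice, 3607 cpm. The test of the gap between the most extreme mouse and its neighbour sets apart about 1 group in 20 by chance, and 6 groups of mice were looked at on both sides for 3 measures each.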

How the results depend on the processing

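The 1755 genes called between EXT and TA mice became 2 with batch as categories, 3 without batches 3 and 4, 0 with log2 library size as a covariate, and, in alternatives chosen after seeing the data, 1103 without mouse 21, 0 with the mitochondrial and Malat1 level as a covariate, 0 without batches 3 and 4 and mouse 21, and 0 with batch as categories and without mouse 21. The other 7 alternatives gave 1552 to 1892. Of the pathway genes, 22 were called, and 0 in each of the same settings except that without mouse 21 (15). The other 8 alternatives gave 15 to 26. Fewer mice or more terms entered several of these fits, and the cause was not tested otherwise. FC minus TA called 0 genes and 1 with the mitochondrial and Malat1 covariate. EXT minus FC called 0 in all 14 alternatives.

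The female minus male difference of Ppp1r1a turned from -0.015 to 0.013 with batch as a number and to 0.053 without batches 3 and 4, and that of Ppp1r1b turned from 0.02 to -0.13 without batches 3 and 4, all within a standard error of 0. Pearson's r between the members moved from 0.36 to 0.811 without batch 3 and mouse 21, which also took the other 2 EXT mice of batch 2 out, was 0.103 with nothing subtracted, and ranged from 0.296 to 0.544 when each mouse was left out in turn. The EXT minus TA difference ranged from 0.40 to 0.69 for Ppp1r1a and from -0.35 to 0.29 for Ppp1r1b over 13 alternatives. Sex differences in EXT minus TA kept their sign and an adjusted p above 0.05 in all 13. Groups had at least 12 mice, so in the fits across genes mouse 21 was the only mouse left out singly. No paired analysis was possible because the labels give no replicate numbers that tie mice of different groups. Reads of both members, 1898 at the fewest, do not limit these values, but 10 EXT mice share a batch with TA mice.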
